A study of Mus musculus with 10 samples.

Results

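Intergenic PRDM16 peaks near genes are defined here as the peaks of the anti-Flag ChIP-Seq library of PRDM16-infected fibroblasts that are shorter than 1000 bp, have their centre outside every curated RefSeq transcript of the mouse genome GRCm38, and lie more than 2 kb and at most 20 kb from the nearest transcription start site (TSS) of such a transcript. Of the 11271 peaks in the deposited list, 802 met this rule. The rule used only the position and the length of a peak, and neither its enrichment nor gene expression. The peaks are referred to below as near-gene intergenic peaks, each is named by the gene of its nearest TSS, and this gene is called its nearest gene. They are set beside 1274 distal intergenic peaks that lie more than 20 kb from a TSS, 2160 peaks within transcripts, and 6193 promoter peaks within 2 kb of a TSS, all shorter than 1000 bp.

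The ChIP-Seq library came from primary wild-type mouse fibroblasts, named vascular fibroblasts in the sample labels, exposed to a lentivirus with Flag-tagged PRDM16 for 48 hours and then kept for 1 week in puromycin at 2 μg/mL. Cells infected with the empty vector gave the matching anti-Flag list of 67 peaks. There was 1 library per condition, so the peak values have no replicate, and no test was made between peak classes. Whole thoracic aortas gave RNA-Seq profiles of 3 Control mice (Prdm16f/f) and 3 *Prdm16*SMKO mice (Prdm16f/f, SMMHC-CreERT2), in which Cre is driven in smooth muscle and its transgene sits on the Y chromosome. The mice were of C57BL/6J background. The knockout was induced from 8 weeks of age by 5 days of tamoxifen at 75 mg/kg/day, after which 2 weeks were left for washout. The peaks therefore describe PRDM16 expressed from a lentivirus in fibroblasts, whereas the RNA describes whole aortas that lost PRDM16 in smooth muscle.

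PRDM16 is a zinc finger transcription factor of the PR domain family. It is best known for directing precursor cells to the brown fat fate, acts with partners such as CtBP corepressors, EHMT1, and C/EBPβ, and resembles MECOM (EVI1), which reads GATA-like DNA through its own zinc fingers. Sequence between genes can hold enhancers, which act on promoters at a distance, and also promoters of transcripts that an annotation does not list. The nearest TSS is a convention and does not show which gene, if any, a peak acts on.

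A tandem repeat of the pentamer TCTTG, whose other strand reads CAAGA, was present in the near-gene intergenic peaks of highest and second highest enrichment and in 7 others. The reference sequences of 4 of these peaks are shown because they carry this repeat, from 100 bp before to 100 bp after the summit on the forward strand of GRCm38. Capitals mark uninterrupted tracts of at least 4 copies, and the *Rpl21* tract runs on past the end of its window.
*Csrp2* peak, chr10:110911518-110911718: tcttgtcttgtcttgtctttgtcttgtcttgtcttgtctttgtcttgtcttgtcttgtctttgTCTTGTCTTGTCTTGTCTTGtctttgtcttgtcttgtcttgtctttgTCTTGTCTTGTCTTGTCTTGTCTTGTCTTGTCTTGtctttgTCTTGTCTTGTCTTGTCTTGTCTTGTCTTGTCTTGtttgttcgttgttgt
*Rpl21* peak, chr5:146821034-146821234: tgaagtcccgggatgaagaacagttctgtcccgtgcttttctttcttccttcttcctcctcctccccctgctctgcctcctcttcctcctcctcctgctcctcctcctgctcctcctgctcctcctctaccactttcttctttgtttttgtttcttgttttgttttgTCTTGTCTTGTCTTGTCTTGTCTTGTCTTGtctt
*Ociad2* peak, chr5:73350482-73350682: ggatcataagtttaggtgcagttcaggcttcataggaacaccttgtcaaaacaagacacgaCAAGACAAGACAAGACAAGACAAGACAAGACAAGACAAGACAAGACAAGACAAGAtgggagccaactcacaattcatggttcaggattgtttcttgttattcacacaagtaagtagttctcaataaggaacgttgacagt
*Cln8* peak, chr8:14869798-14869998: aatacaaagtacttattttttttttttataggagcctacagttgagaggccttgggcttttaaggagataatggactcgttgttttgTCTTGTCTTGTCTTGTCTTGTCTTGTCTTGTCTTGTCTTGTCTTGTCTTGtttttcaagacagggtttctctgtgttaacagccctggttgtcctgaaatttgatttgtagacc

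The other peaks among the 5 of highest enrichment held no such tract. Their summit windows are shown for contrast, with capitals on any of the 18 motifs searched. In the *Mir152* window the capitals mark a CCAAT box. In the *Resp18* window they mark the E-box CATCTG, which HAND factors bind, and, sharing bases with it, the nuclear receptor site AGGTCA read on the other strand. The *Pde4a* window, rich in CpG, held none of the motifs.
*Mir152* peak, chr11:96861760-96861960: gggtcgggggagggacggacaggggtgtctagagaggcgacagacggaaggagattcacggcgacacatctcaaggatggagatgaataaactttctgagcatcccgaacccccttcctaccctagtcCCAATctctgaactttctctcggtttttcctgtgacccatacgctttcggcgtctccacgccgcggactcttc
*Pde4a* peak, chr9:21161312-21161512: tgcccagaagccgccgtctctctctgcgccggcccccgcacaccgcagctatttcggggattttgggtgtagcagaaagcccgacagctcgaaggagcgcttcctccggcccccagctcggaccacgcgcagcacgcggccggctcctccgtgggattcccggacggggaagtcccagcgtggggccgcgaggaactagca
*Resp18* peak, chr1:75292782-75292982: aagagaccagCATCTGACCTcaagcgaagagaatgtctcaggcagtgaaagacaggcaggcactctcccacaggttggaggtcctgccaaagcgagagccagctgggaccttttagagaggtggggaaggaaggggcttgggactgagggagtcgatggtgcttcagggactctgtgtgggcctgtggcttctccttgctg

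Fold enrichment is the ratio of the ChIP signal at the summit to the background that MACS2 set there, as deposited. Many peaks share the same few values, so this background was not specific to each place. Across the 802 peaks its median was 4.92 (interquartile range, 4.22 to 5.98), the same median as in distal intergenic peaks and in peaks within transcripts, and the median of promoter peaks was 5.27. The values ran from 1.14 to 33.8, and 23 peaks reached a fold enrichment of at least 10. The −log10 q had a median of 5.27, and 25 peaks (3.12%) had a q above 0.01, although 0.01 is the threshold stated for the peak calls. The median length was 336 bp (range, 224 to 978 bp). In strength and length these peaks were thus close to the other peaks outside promoters. These values describe a single library, and the peak list does not give its read number.

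**Figure D1:**
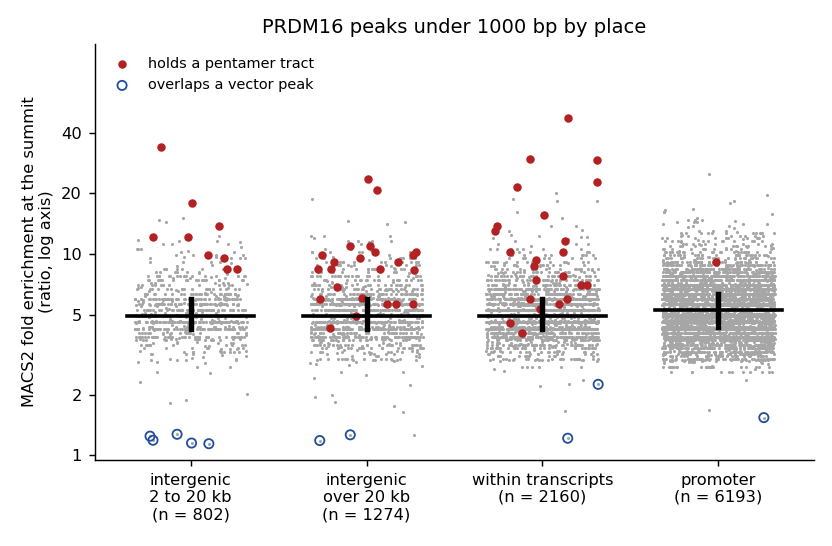
Fold enrichment at the summit (ratio, log axis) of every PRDM16 peak under 1000 bp, by place relative to curated RefSeq transcripts; grey points are peaks, thick bars the interquartile range, and horizontal lines the median. The 802 near-gene intergenic peaks have a median of 4.92, the 9 that hold a TCTTG tract (red) lie between 8.37 and 33.8, and the 5 that overlap a vector peak (blue circles) lie between 1.14 and 1.27.

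The peak with the highest enrichment, 33.8, lay 8.61 kb upstream of *Csrp2*, which encodes a LIM domain protein of smooth muscle. It spanned 731 bp of chromosome 10, from 110911198 to 110911928. The next were 11.7 kb upstream of *Rpl21*, a ribosomal protein gene (fold enrichment 17.9), 11.5 kb downstream of the TSS of the microRNA gene *Mir152* (15.1), 4.26 kb upstream of *Pde4a*, a cAMP phosphodiesterase gene (14.8), and 14.3 kb upstream of *Resp18*, an endocrine secretory protein gene (14.4). The *Csrp2* peak stood well above the next, and the others were close together. In the aorta *Csrp2* had 1786, 1732, and 1725 TPM, a measure of a transcript's share of all transcripts, in Control and 2323, 2496, and 2198 TPM in *Prdm16*SMKO mice, without overlap (adjusted *P* = 0.11 by limma, described below). *Rpl21* and *Pde4a* overlapped between the genotypes, and *Mir152* and *Resp18* were listed at 0 in all 6 aortas.

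A tract of at least 4 tandem copies of TCTTG was present in 9 of the 802 peaks (1.12%; exact Clopper-Pearson 95% interval, 0.514% to 2.12%). Such tracts were in 1.81% of distal intergenic peaks, in 1.06% of peaks within transcripts, and in 1 of the 6193 promoter peaks. The repeat was looked for after the sequences of the highest peaks had been seen, so it is given as a description with no test. The 9 peaks had fold enrichments from 8.37 to 33.8 with a median of 12.1, against a median of 4.92 and a highest value of 15.1 in the 793 peaks without a tract. They included peaks upstream of *Csrp2*, *Rpl21*, *Ociad2*, *Cln8*, *1700028B04Rik*, *Vmn1r2*, and *Dkk1* and downstream of the TSS of *2810410L24Rik*. Their longest tracts had 7 to 18 copies, and the order of copies was not the order of enrichment. *Csrp2* held tracts of up to 7 copies broken by single extra bases, as the sequence above shows, and *Vmn1r2*, with 12 copies, had a fold enrichment of 9.91. In 6 of the 9 peaks the summit lay inside the tract, and in the *Csrp2*, *2810410L24Rik*, and *Rpl21* peaks it lay 10 bp, 12 bp, and 67 bp from it. None of the 9 peaks overlapped a vector peak, which was so for nearly all PRDM16 peaks, since the vector list holds only 67.

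The tracts of the whole assembled genome were then compared with tracts of the reversed pentamer GTTCT, which has the same bases in the opposite order. Of 214 TCTTG tracts, 66 overlapped a PRDM16 peak of any length or place (30.8%; exact 95% interval, 24.7% to 37.5%), and of 252 GTTCT tracts 1 did (0.397%; 0.01005% to 2.19%). The share of TCTTG tracts with a peak was 8.62% at 4 to 5 copies, 22.1% at 6 to 9 copies, and 60.0% at 10 or more copies, for 58, 86, and 70 tracts. Neighbouring steps of this series had intervals of 2.86% to 19.0%, 13.9% to 32.3%, and 47.6% to 71.5%, of which the last did not overlap the others. In intergenic sequence 2 to 20 kb from a TSS, where the near-gene peaks lie, 15 of 38 TCTTG tracts overlapped a peak and 0 of 21 GTTCT tracts did, for which the exact interval reaches 16.1%. There the shares followed the copies in the same order, at 3 of 14, 6 of 15, and 6 of 9 tracts, with wide intervals that overlapped. Tracts that lie close together can share a peak, so tracts within 1000 bp of each other were also counted as 1 locus, a count added after the values were seen. Of the 32 TCTTG loci in this intergenic sequence 9 had a peak (28.1%; 13.7% to 46.7%), at 0 of 11, 3 of 12, and 6 of 9 loci by the copies of the longest tract, and of 20 GTTCT loci 0 had. In the whole genome 56 of 197 TCTTG loci (28.4%; 22.2% to 35.3%) and 1 of 219 GTTCT loci had a peak, and for TCTTG the shares were 4.08%, 17.5%, and 58.8% in order of copies. No tract of either kind overlapped a vector peak. The vector list holds only 67 peaks, and 11 of the 11258 PRDM16 peaks on assembled chromosomes overlapped one. This absence therefore says little about the tracts. The intervals cover counting error only. How reads that match several places were treated is not given in the sources used here.

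**Figure D2:**
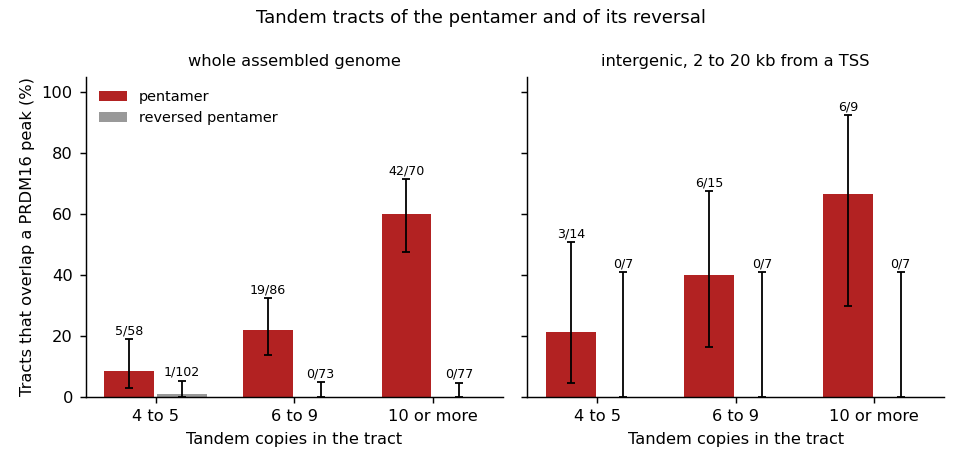
Share of tandem tracts that overlap a PRDM16 peak (%), by the number of copies in the tract, for the pentamer TCTTG (red) and its reversal GTTCT (grey), in the whole assembled genome (left) and in intergenic sequence 2 to 20 kb from a TSS (right). Bars are shares, whiskers exact 95% intervals, and labels tracts with a peak over all tracts, where several tracts can share a peak. At 10 or more copies 42 of 70 TCTTG tracts and 0 of 77 GTTCT tracts overlapped a peak.

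The 5 near-gene intergenic peaks that overlapped a vector peak were at the other end of the range. The 4 nearest to *Mir101c* lay between 3019929 and 3032551 on chromosome 9, in soft-masked repeat sequence, with fold enrichments of 1.14, 1.15, 1.19, and 1.25. The peak nearest to *9230019H11Rik*, on chromosome 10 from 3110027 to 3110344, had a fold enrichment of 1.27. These were the lowest enrichments of the near-gene intergenic peaks, and the −log10 q of the *Mir101c* peaks still ranged from 3.18 to 19.9.

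The distance to the nearest TSS had a median of 9145 bp, and 596 of the 802 peaks (74.3%; exact 95% interval, 71.1% to 77.3%) lay upstream of it. Of the intergenic sequence at these distances, 73.6% lies upstream, because transcripts cover much of the downstream side. Per megabase of eligible intergenic sequence there were 2.71 peaks upstream and 2.60 downstream. The upstream density was 3.18 ± 0.303 per Mb (counting error, the square root of the count) at 2 to 4 kb and 2.34 ± 0.369 per Mb at 18 to 20 kb. Downstream it was 1.93 ± 0.534 per Mb at 2 to 4 kb, 3.28 ± 0.589 at 8 to 10 kb, and 2.65 ± 0.553 at 18 to 20 kb. The upstream density was thus highest next to the excluded 2 kb, and the downstream density followed no steady order. Another peak of any class had its centre within 5 kb of 288 of the 802 peaks (35.9%), against 20.2% of the distal intergenic peaks. Distal peaks lie too far from any curated TSS to have a promoter peak within 5 kb. The limits of the classes thus favour this difference, and it does not show closer spacing as a trait of these peaks.

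**Figure D3:**
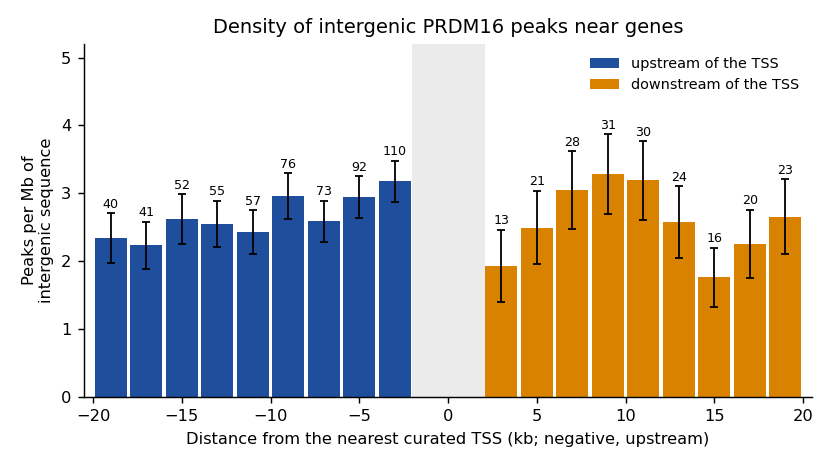
Near-gene intergenic peaks per Mb of eligible intergenic sequence, by distance from the nearest curated TSS in bins of 2 kb (negative, upstream; blue) and downstream (orange). Whiskers are the square root of the count, numbers are peaks, and the grey band is the excluded 2 kb on either side. Densities range from 1.76 to 3.28 per Mb, with 2.71 upstream and 2.60 downstream in all.

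The limits of the rule fell among peaks of ordinary strength. Just inside 2 kb was the peak 2002 bp upstream of *Bvht*, and just outside it the peak 1937 bp upstream of *Traf3ip1*, both with a fold enrichment of 4.57. At 20 kb, the peak 19996 bp upstream of *Fbln2* (6.68) was kept, and the peak 20003 bp upstream of *Hcn4* (3.87) was not. The longest peak kept had 978 bp and lay upstream of *Gpr161* (7.03), and the shortest peak left out for its length had 1000 bp and lay upstream of *Ky* (4.22). In all, 19 peaks failed the rule by length alone.

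By other annotations many of these peaks were not far from a start site. A TSS of GENCODE or of a predicted RefSeq transcript lay within 2 kb of 225 of the 802 peaks (28.1%; exact 95% interval, 25.0% to 31.3%). A further 149 (18.6%) lay inside such a transcript, and 428 (53.4%; 49.8% to 56.9%) were intergenic in all of these sets. Among the 150 peaks with a GENCODE TSS within 2 kb, the nearest transcript was of type lincRNA for 44, protein coding for 37, processed transcript for 20, and processed pseudogene for 16. At *Nr4a1* a peak that lies 12.6 kb upstream of the curated TSS was 7 bp from the TSS of a predicted *Nr4a1* transcript and 63 bp from a GENCODE one. The peak nearest to *Rab17* was 220 bp from the GENCODE TSS of another gene, *Gm28199*. The *Gpr161* peak was 228 bp from the TSS of a predicted transcript of the same gene.

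The summit windows, which span 100 bp on either side, had a median GC content of 55.0%, between the 52.7% of distal intergenic peaks and the 69.7% of promoter peaks. The same windows moved by 5 kb in either direction had 47.8%. A window was called CpG-rich where its GC content was above 50% and its CpG dinucleotides were above 0.6 of the number its base composition predicts, the usual criteria of a CpG island, the form of most mammalian promoters of broadly used genes. This held for 143 of the 802 peaks (17.8%; exact 95% interval, 15.2% to 20.7%), for 11.1% (9.47% to 13.0%) of distal intergenic peaks, for 12.2% (10.9% to 13.7%) of peaks within transcripts, and for 76.6% of promoter peaks. In the shifted windows it held for 3.93% (3.03% to 4.997%). Of the 143 CpG-rich peaks, 73 (51.0%; 42.6% to 59.5%) had a TSS of another annotation within 2 kb, against 152 of the 659 others (23.1%; 19.9% to 26.5%). Where all annotations left the peak intergenic, 11.9% were CpG-rich. The 11.1% of distal peaks is for a set not filtered in this way, of which 14.1% had a GENCODE TSS within 2 kb, so these shares are not of like sets. The CpG-rich peaks were also longer, with a median of 415 bp against 326 bp, and their median fold enrichment was 5.27 against 4.92. Summits lay in soft-masked repeat sequence in 144 peaks (17.96%; 15.4% to 20.8%), less often than at the shifted positions (29.2%; 27.0% to 31.5%) and more often than in promoter peaks (5.73%).

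The GC box, GGGCGG, which Sp and Klf factors bind, was more frequent in these windows than in their surroundings. It was present in 140 of the 802 windows (17.5%; exact 95% interval, 14.9% to 20.3%), against 6.36% and 4.61% at 5 kb to either side, 10.1% of distal intergenic peaks, 13.2% of peaks within transcripts, and 47.5% of promoter peaks. In windows that were not CpG-rich the shares were 9.86% (7.70% to 12.4%) at the peaks and 4.02% (3.10% to 5.13%) at the shifted positions, whose median GC contents were 53.7% and 47.3%, so base composition still differed. The ETS core CCGGAAG occurred in 2.49% (1.53% to 3.83%) of the windows and in 0.873% (0.478% to 1.46%) of the shifted ones. In windows that were not CpG-rich its shares were 1.97% (1.05% to 3.35%) and 0.909% (0.498% to 1.52%), and these intervals overlapped.

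The other motifs were less frequent at the peaks than around them in some cases and more frequent in others. Base composition differed here too, with a median GC content of 55.0% at the peaks and 47.8% in the shifted windows. Its part in these differences was not tested. The GATA core AGATAA was in 51 windows (6.36%; 4.77% to 8.28%), against 8.85% and 9.23% in the shifted windows and 8.48% in distal intergenic peaks. The tandem form GATAAGATA, close to what MECOM binds, was in 3 windows and in 1 window of each shifted set. The CCAAT box was in 15.7% (13.3% to 18.4%), below the 24.7% and 23.4% at 5 kb to either side, and the RUNX site TGTGGTT in 2.99% (1.93% to 4.42%), below 5.11% and 5.99%. The AP-1 site TGANTCA was in 7.11% (5.43% to 9.11%) against 5.99% and 5.49%, and the E-box CACGTG of clock factors in 3.24% (2.13% to 4.71%) against 2.12% and 1.87%. The E-box CATCTG was in 14.1% against 16.6% and 14.2%, and the nuclear receptor site AGGTCA in 14.3% against 13.0% and 13.5%. The TEAD site GGAATG was in 12.1% (9.92% to 14.6%) against 7.73% (5.98% to 9.80%) and 10.3% (8.33% to 12.7%). In windows that were not CpG-rich it was in 13.4% (10.85% to 16.2%) at the peaks. At the shifted positions of both sides together it was in 9.21% (7.82% to 10.77%), so the intervals only just failed to overlap. The median GC contents of these windows were 53.7% and 47.3%. In all windows the interval at the peaks overlapped that of the windows moved by +5 kb. The TEAD site was as frequent in distal intergenic peaks (11.6%). The C/EBP site TTGCNNAA was in 5.61% against 5.74% and 7.61%. Each motif was searched on both strands. The NF1 palindrome was found in 0 of the 802 windows, which allows a share of up to 0.459% by the exact interval. The cyclic AMP response element TGACGTCA, the D-box TTATGNAA, the CArG box, the NRF1 site, and the CTCF core were each in under 1% of windows. A match describes letters in a window and not a bound site.

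**Figure D4:**
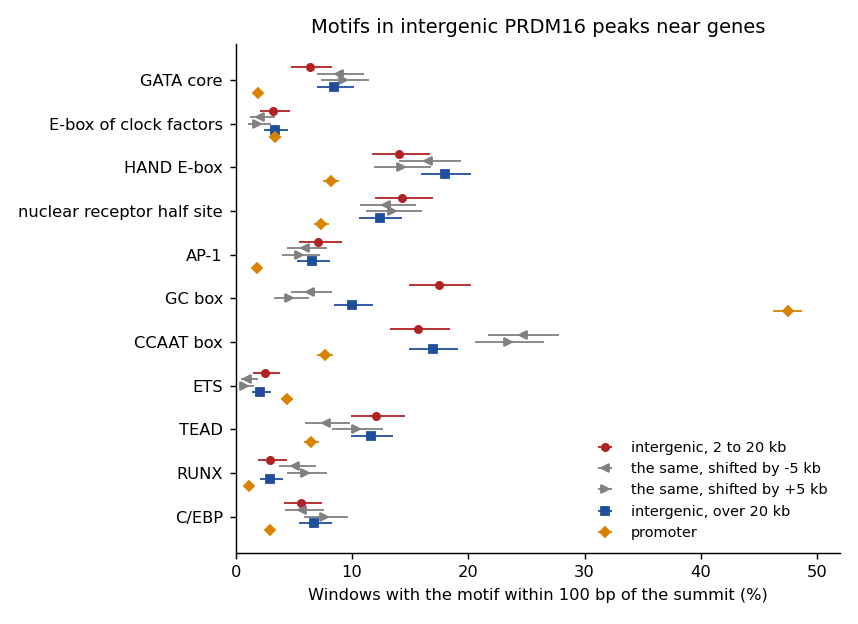
Share of windows with a motif within 100 bp of the summit (%), for the 11 motifs found in at least 1% of near-gene intergenic peaks (red), the same windows shifted by 5 kb to either side (grey), distal intergenic peaks (blue), and promoter peaks (orange). Whiskers are exact 95% intervals. The GC box lies at 17.5% against 6.36% and 4.61% in the shifted windows, and the CCAAT box at 15.7% against 24.7% and 23.4%.

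Of the 18 motifs, the windows held none in 282 peaks, 1 in 283, 2 in 170, 3 in 56, and 4 in 11. Among the windows with 4, the one at *Cirbp* (fold enrichment 5.01) and the one at *Snord12* (5.53) are printed as examples of how different factors' sites lay side by side, with capitals on the motifs. *Cirbp* encodes a cold-inducible RNA-binding protein, and *Snord12* is a small nucleolar RNA gene. The *Cirbp* window held, in this order, a CCAAT box, a GC box, an AGGTCA site, and the E-box CATCTG, each on either strand. The *Snord12* window held a CCAAT box, an AGGTCA site, the E-box CATCTG, and a D-box.
*Cirbp* peak, chr10:80162692-80162892: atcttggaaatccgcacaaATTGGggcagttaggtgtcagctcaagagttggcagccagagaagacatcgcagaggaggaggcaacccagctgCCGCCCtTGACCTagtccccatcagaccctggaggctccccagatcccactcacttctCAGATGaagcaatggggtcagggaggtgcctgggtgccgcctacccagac
*Snord12* peak, chr2:167079507-167079707: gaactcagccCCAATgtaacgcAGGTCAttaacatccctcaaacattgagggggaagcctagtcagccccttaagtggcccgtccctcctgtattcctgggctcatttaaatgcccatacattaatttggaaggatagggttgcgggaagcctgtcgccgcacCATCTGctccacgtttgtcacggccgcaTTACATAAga

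The 802 peaks had 648 distinct nearest genes, of which 529 had 1 such peak, 90 had 2, 23 had 3, and 6 had 4. The 6 genes were *Gas7*, *Irf2bp2*, *Lncppara*, *Mir101c*, *Rara*, and *Trim56*. Upstream of *Rara*, the retinoic acid receptor α gene, the 4 peaks lay 4444 to 7728 bp from the TSS with fold enrichments of 4.22 to 4.92, and all of them were 2150 to 4446 bp from a GENCODE TSS of *Rara*. At *Gas7*, a growth arrest gene, they lay 5.91 to 17.6 kb upstream with fold enrichments of 4.34 to 8.44. At *Irf2bp2*, a corepressor gene, 3 lay 8.32 to 10.8 kb downstream and 1 lay 2.78 kb upstream (3.72 to 7.73). At the long noncoding RNA gene *Lncppara*, they lay 15.5 to 19.3 kb upstream (5.11 to 8.09). Those of *Trim56*, a ubiquitin ligase gene, lay downstream with fold enrichments of 3.78 to 5.63, and those of *Mir101c* are the peaks of low enrichment described above. In the aorta *Rara* had 10.6 ± 2.34 TPM in Control and 10.5 ± 0.642 TPM in *Prdm16*SMKO mice, and *Gas7* had 8.62 ± 0.512 and 10.5 ± 1.53 TPM (SD, n = 3 each). Neither these nor *Irf2bp2* nor *Lncppara* passed the test between genotypes (adjusted *P* by limma, 1.0, 0.51, 0.92, and 0.45 in the order *Rara*, *Gas7*, *Irf2bp2*, *Lncppara*).

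Genes near such a peak often had a promoter peak as well. A gene counts here and below as having one where a peak's centre lies within 2 kb of any of its curated start sites. Peaks of 1000 bp or more are included in this count, unlike in the class of promoter peaks defined at the start. A promoter peak was present at 280 of the 648 nearest genes (43.2%; exact 95% interval, 39.4% to 47.1%), at 6818 of 26180 genes with a curated transcript (26.04%), and at 42.5% (39.3% to 45.8%) of the genes nearest to a distal intergenic peak. Among genes expressed in the aorta, with a mean TPM of at least 0.5, the shares were 59.9% (54.8% to 64.9%) of 379 nearest genes and 43.3% of all such genes.

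The genotypes were compared by fitting limma to log2(TPM + 0.1) of the 6 aortas, and a gene is referred to as called where its Benjamini-Hochberg adjusted *P* value over the 15668 genes tested is under 0.05. Fold changes are on this log2 scale, on which the changes of low genes are understated. Statements that groups did or did not overlap describe the 3 and 3 values and are no further test. The share of all tested genes without overlap is not given here. The *P* values measure the spread between these aortas, which the labels number but do not describe further. A gene not called is not shown to be unchanged. The paper's own differential analysis of these aortas lists genes not called here, among them *Csrp2*, *Id3*, *Mecom*, *Nr4a2*, *Atf3*, *Fosl2*, *Col1a2*, and *Adra1d*. *Prdm16* had 40.3 to 56.1 TPM in the Control aortas and 23.3 to 33.3 TPM in the *Prdm16*SMKO aortas, with no overlap (log2 fold change −0.85, adjusted *P* = 0.072 by limma). The summed TPM of the smooth muscle markers *Myh11*, *Acta2*, *Tagln*, and *Cnn1* was 19527 to 22509 in Control and 12883 to 16540 in *Prdm16*SMKO aortas, and 0 of these 4 genes were called by limma, where 3 were lower at an unadjusted *P* under 0.05. The sums of 5 fibroblast markers (828 to 1067 and 725 to 1025 TPM), 3 endothelial markers (76.2 to 95.2 and 48.6 to 121), and 3 brown adipocyte markers (89.1 to 462 and 104 to 378) overlapped between the groups, and none of these markers was listed at 0. The fibroblast sum joins opposite directions. *Col1a1* had a log2 fold change of −0.54, and *Dcn*, *Lum*, *Pdgfra*, and *Dpt* had 0.17, 0.47, 0.26, and 0.13, with none of the 5 called. The lower smooth muscle sum moved with the genotype in every comparison below, and its part was not tested. In bulk tissue, fewer cells of a type and less RNA per cell cannot be told apart. Across the 15668 genes the log2 fold change had a median of −0.12, and the changes below are to be read against this shift.

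Of the 648 nearest genes, 379 were expressed at a level that allowed a test, 247 were too low, and 22 could not be found in the table. Of the 379, 3 were called higher (0.792%) and 8 lower (2.11%) in *Prdm16*SMKO aortas, where 0.389% of all tested genes were called higher and 0.683% lower. Their median log2 fold change was −0.11, against −0.12 for all genes. At an unadjusted *P* under 0.05, 88 of the 379 passed (23.2%), of which 25 were higher and 63 lower. Of all tested genes 12.7% passed, of which 505 were higher and 1481 lower. Lower genes were thus the more frequent in both sets. The nearest genes were also expressed at higher levels, with a median control level of 17.2 TPM against 8.91 TPM, and differences at this *P* were more frequent at higher levels. Within bands of mean TPM the unadjusted shares were 14.9% against 8.66% of all tested genes below 5 TPM, 23.4% against 11.9% from 5 to 20 TPM, and 27.6% against 18.8% above. The genes nearest to distal intergenic peaks gave 18.2% and those nearest to peaks within transcripts 20.1%, so that a share above that of all genes was also seen for other peaks outside promoters, while the genes of promoter peaks gave 14.2%. No test was made between these shares, since the genes and the aortas are shared. With the libraries scaled by median ratios, 17 of the 379 nearest genes were called higher and 19 lower. Of all 15668 tested genes, 200 were then called higher (1.28%) and 213 lower (1.36%). The split between directions thus depended on the scaling, while the 11 genes remained called.

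**Figure D5:**
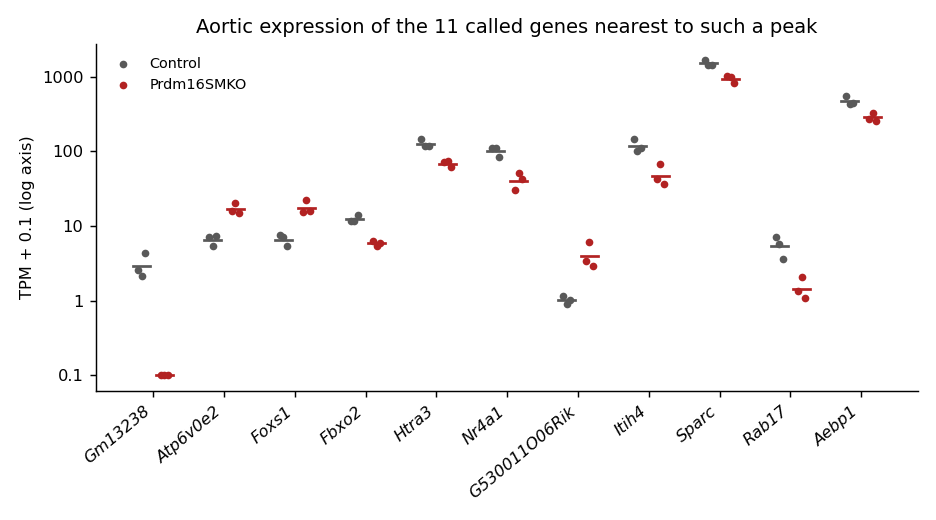
TPM + 0.1 (log axis) in each of 3 Control (grey) and 3 *Prdm16*SMKO (red) aortas for the 11 called genes nearest to a near-gene intergenic peak, ordered by adjusted *P* value. Points are aortas and lines the mean of the log2 values. The groups do not overlap for any of the 11, which is no further support, since the genes were chosen by *P* value on these same aortas. Of the 11, 3 are higher and 8 lower after knockout.

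The 3 genes called higher were *Atp6v0e2*, *Foxs1*, and *G530011O06Rik*. *Foxs1* encodes a forkhead transcription factor. It had 7.38, 6.95, and 5.33 TPM in the Control aortas and 15.5, 22.2, and 15.8 TPM in the *Prdm16*SMKO aortas. Every knockout value was above every control value (log2 fold change 1.42 ± 0.20 SE, adjusted *P* = 0.012 by limma). Its 2 intergenic peaks lay 4.78 and 7.72 kb downstream of the TSS, with fold enrichments of 4.01 and 4.92, and the gene had no promoter peak. *Atp6v0e2*, a subunit of the vacuolar proton pump, rose from 6.45 ± 1.01 to 17.01 ± 3.01 TPM (SD, n = 3 each), with 5.29 to 7.14 TPM against 14.8 to 20.4 TPM (log2 fold change 1.38 ± 0.19 SE, adjusted *P* = 0.010 by limma). Its peak, 4.51 kb into the downstream side, was weaker (3.61). *G530011O06Rik*, a noncoding gene at the ends of the sex chromosomes, had 0.80 to 1.06 TPM in Control and 2.83 to 6.0 TPM in *Prdm16*SMKO aortas (adjusted *P* = 0.032 by limma). Its peaks were placed on chromosome X (fold enrichment 6.47) and on chromosome Y (4.67). Reads of such shared sequence can be split between copies, so both its level and its peaks are uncertain. The Cre transgene on the Y chromosome was carried by the knockout group alone, and its effect and that of the knockout cannot be told apart.

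Among the 8 genes called lower, *Sparc*, *Htra3*, and *Aebp1* encode secreted proteins of the matrix. *Sparc*, a collagen-binding matricellular protein, had 1698, 1461, and 1455 TPM in the Control and 1035, 985, and 827 TPM in the *Prdm16*SMKO aortas. Each knockout value lay below the lowest control value (log2 fold change −0.70 ± 0.12 SE, adjusted *P* = 0.039 by limma). Its peak lay 7.86 kb upstream of the curated TSS and 4757 bp from a GENCODE TSS of *Sparc*, with a fold enrichment of 4.92, and the gene had a promoter peak too. *Htra3*, a secreted serine protease, had 145, 117, and 118 TPM in Control and 71.5, 73.5, and 60.9 TPM in *Prdm16*SMKO aortas (log2 fold change −0.88 ± 0.13 SE, adjusted *P* = 0.017 by limma). It had peaks 11245 and 11951 bp upstream with fold enrichments of 4.92 and 5.58 and no promoter peak. *Aebp1*, the gene of a collagen-binding carboxypeptidase-like protein, was the last of the 11 by *P* value and was named after its values had been seen. It had 558, 434, and 453 TPM in Control and 274, 333, and 255 TPM in *Prdm16*SMKO aortas (log2 fold change −0.75 ± 0.14 SE, adjusted *P* = 0.0497 by limma), its peaks were among the weaker ones, at 3.41 and 4.03, and a promoter peak was present too.

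*Nr4a1*, an orphan nuclear receptor of the immediate-early response, had 110, 110, and 85.1 TPM in Control and 29.9, 51.8, and 42.3 TPM in *Prdm16*SMKO aortas. All knockout values lay below the control values (log2 fold change −1.32 ± 0.20 SE, adjusted *P* = 0.020 by limma). Its intergenic peaks lay 12.6 kb (fold enrichment 4.03) and 18.5 kb upstream (4.92), the former at the alternative start sites given above, and a promoter peak was present too. *Itih4*, which encodes an inter-α-trypsin inhibitor heavy chain, had 147, 102, and 110 TPM in Control and 42.8, 67.6, and 36.5 TPM in *Prdm16*SMKO aortas (log2 fold change −1.32 ± 0.23 SE, adjusted *P* = 0.037 by limma), with peaks 3.54 kb upstream (fold enrichment 3.87) and 18.2 kb downstream (5.27) of its TSS. *Rab17*, a small GTPase of epithelial traffic, had 7.08, 5.69, and 3.56 TPM in Control and 1.26, 1.97, and 0.97 TPM in *Prdm16*SMKO aortas (log2 fold change −1.89 ± 0.34 SE, adjusted *P* = 0.039 by limma), and its peak had a fold enrichment of 5.98.

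The last of the genes called lower lie on chromosome 4, as *Prdm16* does. *Fbxo2*, a ubiquitin ligase subunit for glycoproteins, had 11.7, 11.6, and 13.8 TPM in Control and 6.26, 5.30, and 5.75 TPM in *Prdm16*SMKO aortas (log2 fold change −1.08 ± 0.15 SE, adjusted *P* = 0.013 by limma). Its peak, 13.7 kb downstream of the TSS (fold enrichment 5.12), lay 6.46 Mb from the TSS of *Prdm16*, and *Fbxo2* also had a promoter peak. The predicted gene *Gm13238* had 2.47, 2.04, and 4.23 TPM in Control aortas and was listed at 0 in all 3 *Prdm16*SMKO aortas (adjusted *P* = 0.0079 by limma), with a peak of low enrichment (2.56) 8.79 Mb from *Prdm16*. Within 20 Mb of *Prdm16* there were 16 near-gene intergenic peaks with 11 tested nearest genes, of which these 2 were called. Of all 223 tested genes with a curated TSS in that range, *Prdm16* aside, 20 were called (8.97%), 1 higher and 19 lower, against 1.07% of all tested genes. The part of this neighbourhood in the calls of *Fbxo2* and *Gm13238* was not tested.

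The summit windows of the strongest peak at *Foxs1* and *Htra3* and of the peaks at *Atp6v0e2* and *Fbxo2* are given as the sequences that go with the called genes. Capitals mark the motifs searched, namely a CCAAT box at *Foxs1*, AGGTCA sites read on the other strand at *Atp6v0e2* and *Fbxo2*, and none at *Htra3*. The *Atp6v0e2* window held 2 of these sites and the *Fbxo2* window 1. AGGTCA was in 14.3% of all near-gene intergenic windows, so single matches are common.
*Foxs1* peak, chr2:152925451-152925651: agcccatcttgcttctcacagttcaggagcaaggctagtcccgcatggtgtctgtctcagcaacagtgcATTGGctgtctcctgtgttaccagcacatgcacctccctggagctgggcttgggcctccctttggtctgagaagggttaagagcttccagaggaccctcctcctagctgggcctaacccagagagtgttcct
*Htra3* peak, chr5:35691514-35691714: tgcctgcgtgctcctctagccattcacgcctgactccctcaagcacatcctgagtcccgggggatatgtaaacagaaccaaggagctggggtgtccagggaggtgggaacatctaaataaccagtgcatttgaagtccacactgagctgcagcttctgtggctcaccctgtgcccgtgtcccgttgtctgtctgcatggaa
*Atp6v0e2* peak, chr6:48541982-48542182: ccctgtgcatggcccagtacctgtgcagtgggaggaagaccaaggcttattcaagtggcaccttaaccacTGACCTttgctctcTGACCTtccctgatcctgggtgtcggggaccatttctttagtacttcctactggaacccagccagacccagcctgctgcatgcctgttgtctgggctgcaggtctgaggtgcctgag
*Fbxo2* peak, chr4:148174305-148174505: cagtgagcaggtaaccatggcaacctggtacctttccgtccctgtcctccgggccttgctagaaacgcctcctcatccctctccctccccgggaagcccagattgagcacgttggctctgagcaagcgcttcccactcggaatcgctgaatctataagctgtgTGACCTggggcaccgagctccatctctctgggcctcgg

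The 11 genes kept their direction under all 14 alternative settings of the fit, but none was called in every setting. Without limma's mean-variance trend 1 of the 11, *Gm13238*, was still called. *Atp6v0e2* and *Foxs1* lost their call under that setting alone, whereas *Aebp1* kept it in 4 of the 14 settings and *Sparc* and *G530011O06Rik* in 6. Without Control aorta 1, a single nearest gene was called lower, and without Control aorta 2 or 3 there were 2. Without *Prdm16*SMKO aorta 1 there were 3, and without *Prdm16*SMKO aorta 3 there were 4 lower and 6 higher.

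Several gene lists were compared for near-gene intergenic peaks, where 2.48% of the 26180 genes with a curated transcript, and 2.88% of those expressed in the aorta, had at least 1. These are counts of few genes, chosen as lists with earlier results of these data known, and no test was made. Of all 15668 genes tested, 0.389% were called higher and 0.683% lower. At an unadjusted *P* under 0.05 by limma, 505 of them were higher and 1481 lower (12.7% in all). The counts called in each list below are to be read beside these shares. Of 21 immediate-early genes, which respond to stimuli within minutes, 7 had at least 1 such peak, namely *Fosl2*, *Junb*, *Ier3*, *Atf3*, *Nr4a1*, *Nr4a2*, and *Nr4a3*, and 18 of the 21 had a promoter peak. All 3 receptors of the NR4A family were thus included. *Nr4a2* had 6.72, 8.02, and 7.07 TPM in Control and 3.13, 4.61, and 4.07 TPM in *Prdm16*SMKO aortas, without overlap (adjusted *P* = 0.084 by limma). *Nr4a3* had 6.33, 8.40, and 9.20 TPM and 4.49, 6.03, and 7.59 TPM, and these groups overlapped (adjusted *P* = 0.50 by limma). The peak of *Nr4a3* lay 2.28 kb upstream and that of *Nr4a2* 12025 bp downstream of the TSS, both with a fold enrichment of 4.57. *Junb*, which encodes an AP-1 subunit, had its peak 2.71 kb downstream and 507 bp from a GENCODE TSS (5.27). *Atf3* had its peak 7.08 kb upstream (5.63), and its levels of 48.9 to 106 TPM in Control and 31.2 to 43.8 TPM in *Prdm16*SMKO aortas did not overlap (adjusted *P* = 0.24 by limma). *Fosl2*, another AP-1 subunit, had 41.2 to 52.8 and 26.7 to 34.8 TPM, also without overlap (adjusted *P* = 0.14 by limma). Of the 20 immediate-early genes tested, limma called 0 higher and 1 lower, where 3 were higher and 6 lower at an unadjusted *P* under 0.05, with a median log2 fold change of −0.25.

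Of 27 genes of the TGF-β and BMP pathway, 5 had a near-gene intergenic peak. Among its targets were all 3 of the *Id* genes listed, which encode inhibitors of helix-loop-helix factors. *Id2* had the strongest peak of any listed gene, with a fold enrichment of 11.2 at 2.44 kb upstream, and another of 5.63 at 4.75 kb, and *Id1* and *Id3* had downstream peaks of 7.59 and 4.65. *Tgfbr3*, a co-receptor, had a peak 5.49 kb upstream (5.27), and *Ski*, a corepressor of SMAD proteins, had one 11.5 kb upstream (3.87) that was 24 bp from the TSS of a predicted transcript. Of the 26 pathway genes tested limma called 0, where 3 were higher and 6 lower at an unadjusted *P* under 0.05, and their median log2 fold change was −0.10. The paper's own analysis of these aortas lists *Id3* and *Tgfbr3* as higher and *Ski* as lower. The count of 0 therefore does not show an unchanged pathway. *Id3* had 71.1 to 79.5 TPM in Control and 86.2 to 123 TPM in *Prdm16*SMKO aortas without overlap (adjusted *P* = 0.17 by limma), and the levels of *Id1* and *Id2* overlapped between the groups.

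Among 9 cofactors and relatives of PRDM16, *Mecom*, *Cebpb*, and *Ski* had such a peak. That of *Mecom*, the closest relative of *Prdm16*, lay 5.35 kb upstream in a CpG-rich window (fold enrichment 6.68), and that of *Cebpb*, the partner of PRDM16 in brown fat, 2.24 kb upstream (3.87). *Mecom* had 12.8 to 18.6 TPM in Control and 18.6 to 25.7 TPM in *Prdm16*SMKO aortas (adjusted *P* = 0.32 by limma), and limma called 0 of the 9 genes, of which 1 was higher and 1 lower at an unadjusted *P* under 0.05. *Cebpb* was also the single gene with such a peak among 10 of the brown fat program, of which 0 were called by limma and 2 were lower at an unadjusted *P* under 0.05. Of 18 fibroblast and matrix genes, *Col1a1*, *Col1a2*, *Col6a1*, and *Lum* had one. The *Col1a1* peak lay 8.09 kb upstream with a fold enrichment of 9.49, and the level of this collagen gene was 363 to 518 TPM in Control and 252 to 365 TPM in *Prdm16*SMKO aortas (adjusted *P* = 0.24 by limma). *Col1a2* had 636 to 859 and 417 to 568 TPM (adjusted *P* = 0.16 by limma), *Col6a1* 233 to 287 and 149 to 210 TPM (adjusted *P* = 0.20 by limma), and neither pair of ranges overlapped, while those of *Col1a1* did. Of the 18 genes limma called 0 higher and 4 lower, where 0.389% and 0.683% of all tested genes were called. The 4 had no near-gene intergenic peak. At an unadjusted *P* under 0.05 by limma, 2 of the 18 were higher and 10 lower, against 12.7% of all tested genes in either direction. The median log2 fold change of the list was −0.43.

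The contractile, adrenergic, and clock lists had 1 gene each with such a peak, which gave shares of 6.25% (exact 95% interval, 0.158% to 30.2%), 11.1% (0.281% to 48.2%), and 4.55% (0.115% to 22.8%), whose intervals all include the 2.48% of all genes. Of 16 contractile genes, *Des*, the muscle intermediate filament gene, had peaks 12.6 kb (fold enrichment 7.73) and 13.0 kb upstream (4.03). It had 46.1 to 63.1 TPM in Control and 67.9 to 73.1 TPM in *Prdm16*SMKO aortas (adjusted *P* = 0.23 by limma), and the median log2 fold change of the list was −0.22. Limma called 0 of them, where 2 were higher and 5 lower at an unadjusted *P* under 0.05. Of 9 adrenergic receptor genes, *Adra1b* had a peak 19.1 kb upstream (4.57), and limma called 0 of the 7 tested, where 1 was lower at an unadjusted *P* under 0.05. The paper lists *Adra1d* as lower in its own analysis of these aortas and reports less *Adra1a* and *Adra1d* by qPCR. The count of 0 therefore does not show that no receptor changed. Of 22 core clock genes, *Nr1d1*, which encodes the repressor REV-ERBα, had a peak 7.90 kb upstream (3.87). Its levels, 137 to 193 TPM and 135 to 192 TPM, overlapped almost wholly between the groups (adjusted *P* = 0.88 by limma). Of the 21 clock genes tested, 3 were called higher and 1 lower, none of them *Nr1d1*, where 0.389% and 0.683% of all tested genes were called. At an unadjusted *P* under 0.05, 9 were higher and 4 lower, the median log2 fold change was 0.49, and 0 were called without limma's trend.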

How the data were processed

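ChIP-Seq peak lists of 1 PRDM16 and 1 vector anti-Flag library and RNA-Seq of 6 aortas were used, grouped by their titles. The authors aligned the ChIP reads with bowtie2 to GRCm38, and MACS2 (-f BAMPE, -g hs, q threshold 0.01) gave the peaks of each library, though some deposited peaks have a q above that threshold. The option -g hs is the preset for the human genome size, although the reads are of mouse, and its effect on fold enrichment and q was not tested. The control library given to MACS2 is not given in the sources used here. The deposited lists hold fold enrichment as a ratio, −log10 p, and −log10 q, the first and last of which were used as deposited, and an integer score that was not used. For RNA-Seq the authors deposited TPM, which keep no depth, so no counting interval was computed. The submitters' processing notes name STAR 2.7.8a and RSEM 1.3.3, without a role. The IgG libraries were not used.

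Peaks were placed by their centre relative to curated RefSeq transcripts, read from the RefSeq annotation of GRCm38, and compared with GENCODE vM21 and predicted RefSeq transcripts. Nearest genes were joined to the TPM table by Ensembl identifier, or by symbol where this failed, and 626 of 648 were found. The genotypes were tested in R 4.3.3 with limma 3.58.1 (lmFit, eBayes with trend, pseudocount 0.1, mean TPM of at least 0.5, no covariates, Benjamini-Hochberg adjustment), a procedure tested on simulated data. Shares have exact Clopper-Pearson 95% intervals, which cover counting error only. Scripts ran under Python 3.11.15 with numpy 2.4.6, scipy 1.17.1, and pandas 2.3.3.

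Named peaks are the 5 of highest fold enrichment, those whose nearest gene was among the 10 called genes of lowest adjusted *P* value or in a gene list, those of up to 5 genes with the most peaks, and those next to the limits of the rule. Sequences were taken for the first kind, for up to 5 called genes, and for the 3 windows with the most motifs, and a selection is printed. The window of 1 peak with a tract is not reported here. *Aebp1*, *Trim56*, *9230019H11Rik*, and the peaks with TCTTG tracts were named after their values were seen. The peak set, the motifs, and the gene lists were chosen with earlier results of these data known.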

Additional observations from a re-analysis of the deposited data

How the results depend on the processing

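The limits below concern thresholds, since the peaks come from 1 library and cannot be checked against a replicate. The number of near-gene intergenic peaks was 410 with a q of at most 1e-05 and 1401 with distances of 2 to 50 kb, against 802, and it stayed within 1.5 times under the other settings. The median fold enrichment was 5.27 with a q of at most 0.001 and 5.98 with a q of at most 1e-05. The share in soft-masked repeats was 8.98% where at least 50% of the peak had to be masked. The share whose nearest gene had a promoter peak was 40.9% with a promoter of 1 kb, and the share with another annotation's TSS was 19.1% within 1 kb and 53.2% within 5 kb. Leaving out the peaks that overlap a vector peak or hold a TCTTG tract, settings chosen after seeing the data, moved none of these values beyond their intervals. Shares of motifs moved with the length of the window, as they must.

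For expression, 168 genes were called in all. Without limma's trend 48 were called in all, with 0 of the nearest genes higher and 1 lower, against 23 and 53 at an unadjusted *P* under 0.05. Without a TPM filter the counts were 110 in all and 3 nearest genes lower, and with a mean TPM of at least 1 there were 6 higher. Rescaling by median ratio gave 413 in all, 17 higher, and 19 lower, and quantile normalization gave 392, 16, and 16. With 1 aorta left out at a time, 91 to 141 genes were called in all, 2 to 6 nearest genes higher, and 1 to 8 lower. Same-numbered aortas did not deviate together (correlations of −0.0246, −0.0700, and −0.00896), so the numbers do not pair them. With the replicate block, 5 nearest genes were called higher, 12 lower, and 184 genes in all. The cause of these differences was not tested. The lists hold only the peaks called, so nothing can be said here of signal elsewhere.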
